A study of Mus musculus with 8 samples.

Results

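Scgb1a1, Scgb3a1, Scgb3a2, Bpifa1, Bpifb1 and Muc5b are 6 genes whose protein products are secreted into the airway lining fluid, and they were chosen by name from the 27179 genes of a count table. All 6 passed the filter on low counts and were among the 15583 genes tested. The table holds bulk RNA-seq of cells sorted from Eml4-Alk lungs, lungs of C57BL/6 mice (C57BL/6J in the study's methods) where tumors were started by adenovirus given through the trachea, whose Cas9 and guide RNAs join the Eml4 and Alk genes. Mice were 18 to 22 weeks old and 11 to 12 weeks past tumor induction, and the study's methods describe them as female. Each received 4.5 nmol of QZ1-(PEG2K), a quenched probe that becomes fluorescent and tags nearby cells when a protease cuts its linker, and lungs were removed after 2 h. A sort for live, CD45- and CD11b- cells, with QZ1 signal plotted against EpCAM, gave a QZ1-hi population (QZ+ in the labels) and a QZ1-lo population (QZ- in the labels) of at least 100000 cells each. There were 4 libraries of each population, described as biological replicates, and no label says which libraries came from the same mouse. Their titles are consecutive numbers in which the populations alternate, so neighboring libraries may share a mouse, and all tests here are unpaired. Both populations therefore came from mice that carried tumors and had received the probe. In the study's methods tumors were dissected away from healthy tissue, and tumors and surrounding tissue were both kept for cell suspensions. No label says whether these tissues were kept apart for the libraries used here. Lungs without tumors or probe were not part of this comparison.

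Club cells are secretory cells of the bronchiolar lining. They release secretoglobins, small proteins of the airway fluid of which Scgb1a1 encodes the best known, and they detoxify inhaled chemicals with cytochrome P450 and related enzymes. BPIF proteins are secreted lipid-binding proteins of mucosal host defense, and Muc5b encodes a gel-forming mucin needed to clear inhaled particles. Most of these products are not particular to club cells: Muc5b, Bpifb1, Bpifa1 and Scgb3a1 are also made by mucous cells and by the submucosal glands of the large airways.

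Of the 6 genes, 5 were lower in QZ1-hi than in QZ1-lo by an adjusted p under 0.05 (quasi-likelihood test of edgeR, Benjamini-Hochberg adjustment over all genes tested), and Bpifa1 was not called in either direction. Among all genes tested, 8.21% were lower in QZ1-hi by the same rule, 9.88% were higher and 18.1% were called in either direction. In the same 5 genes every QZ1-lo library was above every QZ1-hi library, which held for 10.7% of all genes tested. The median log2 fold change (QZ1-hi relative to QZ1-lo) was -1.97 over the 6 genes and 0.02 over all genes tested. In bulk RNA from sorted cells, fewer cells of a type and less RNA per cell cannot be told apart.

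Promoters of 3 of the genes are shown here because the values below set Bpifa1 against the others, and Bpifa1 and Bpifb1 belong to the same cluster of BPIF genes. They are the 250 bases before the start of the gene on the plus strand of GRCm38.p6, from RefSeq: chr11:49663345-49663594 for Scgb3a1, chr2:154190568-154190817 for Bpifb1 and chr2:154142630-154142879 for Bpifa1. Capitals mark matches to the letters searched on both strands, which were TGTTTNC for FOXA factors, CTCAAG for NKX2-1, TTGCNNAA for C/EBP factors and TATAAA for the TATA box.
Scgb3a1: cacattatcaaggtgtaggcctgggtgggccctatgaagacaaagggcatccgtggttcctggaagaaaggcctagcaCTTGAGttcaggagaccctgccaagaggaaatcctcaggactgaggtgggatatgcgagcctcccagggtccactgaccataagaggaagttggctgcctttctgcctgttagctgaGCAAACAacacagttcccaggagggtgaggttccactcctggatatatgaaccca
Bpifb1: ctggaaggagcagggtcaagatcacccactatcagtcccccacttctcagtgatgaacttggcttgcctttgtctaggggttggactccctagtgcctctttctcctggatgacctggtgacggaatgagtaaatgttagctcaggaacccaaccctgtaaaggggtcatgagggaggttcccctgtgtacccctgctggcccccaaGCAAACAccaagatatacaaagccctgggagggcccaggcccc
Bpifa1: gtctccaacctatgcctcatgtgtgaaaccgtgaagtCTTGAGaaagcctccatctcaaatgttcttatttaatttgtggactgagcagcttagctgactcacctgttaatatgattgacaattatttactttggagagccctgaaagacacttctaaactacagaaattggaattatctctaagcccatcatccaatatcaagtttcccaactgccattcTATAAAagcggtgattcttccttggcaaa
The FOXA letters were found on the minus strand at positions -55 to -49 of Scgb3a1 and -43 to -37 of Bpifb1, counted from the gene's start. They were not found in this window of Bpifa1. RefSeq held 2 promoter entries for Bpifb1, and the one that does not end at the gene's start is not shown. The NKX2-1 letters were found on the minus strand at -172 to -167 of Scgb3a1 and -213 to -208 of Bpifa1, and the TATA letters at -29 to -24 of Bpifa1. Among 32851 promoters of the same length, 17.84% held the FOXA letters, 13.33% the NKX2-1 letters, 12.37% the TATA letters and 9.564% the C/EBP letters, so that a match is a description and not a binding site.

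Scgb1a1 (Entrez 22287; GRCm38 chr19:9083642-9087956, minus strand) encodes the club cell secretory protein and was the most abundant of the 6. Levels are CPM, counts relative to library size, scaled by TMM, edgeR's correction for library composition. Scgb1a1 stood at 268, 796, 296 and 301 CPM in QZ1-hi libraries 1 to 4 and at 1196, 3477, 2315 and 1652 CPM in QZ1-lo libraries 1 to 4. The populations did not overlap, although the highest QZ1-hi library, number 2, stood well above the other QZ1-hi libraries. Mean levels were 415 ± 254 CPM in QZ1-hi and 2160 ± 991 CPM in QZ1-lo (SD, n = 4 each), 5.20-fold lower in QZ1-hi, with a log2 fold change of -2.38 (SE 0.41, edgeR adjusted p = 0.00227). The exact two-sided permutation test of the library means gave p = 0.0286, the smallest that 4 against 4 libraries allow, and the other genes called lower gave the same value. Without QZ1-hi 2 the log2 fold change was -2.93 (edgeR adjusted p = 0.000628).

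Scgb3a2 (Entrez 117158), a secretoglobin of the smaller airways, differed by about as much as Scgb1a1 at a far lower level. Its levels were 1.65, 14.3, 5.38 and 8.52 CPM in QZ1-hi and 23.6, 61.8, 29.5 and 37.4 CPM in QZ1-lo. QZ1-hi 2 and QZ1-lo 2 were again the highest of their populations, and QZ1-hi 1 was lowest, 8.67-fold below QZ1-hi 2. The means of 7.47 ± 5.36 and 38.1 ± 16.8 CPM (SD, n = 4 each) gave a log2 fold change of -2.35 (SE 0.52, edgeR adjusted p = 0.00852).

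Scgb3a1 (Entrez 68662; GRCm38 chr11:49663595-49665118, plus strand) encodes a secretoglobin of larger airways and mucous cells. It was measured at 18.5, 20.8, 9.77 and 17.9 CPM in QZ1-hi and at 70.6, 60.9, 22.6 and 47.1 CPM in QZ1-lo. Library 3 was the lowest of each population, and QZ1-lo 3 lay just above the highest QZ1-hi library. Mean levels were 16.8 ± 4.83 and 50.3 ± 20.8 CPM (SD, n = 4 each), and the log2 fold change was -1.58 (SE 0.33, edgeR adjusted p = 0.00614).

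**Figure D1:**
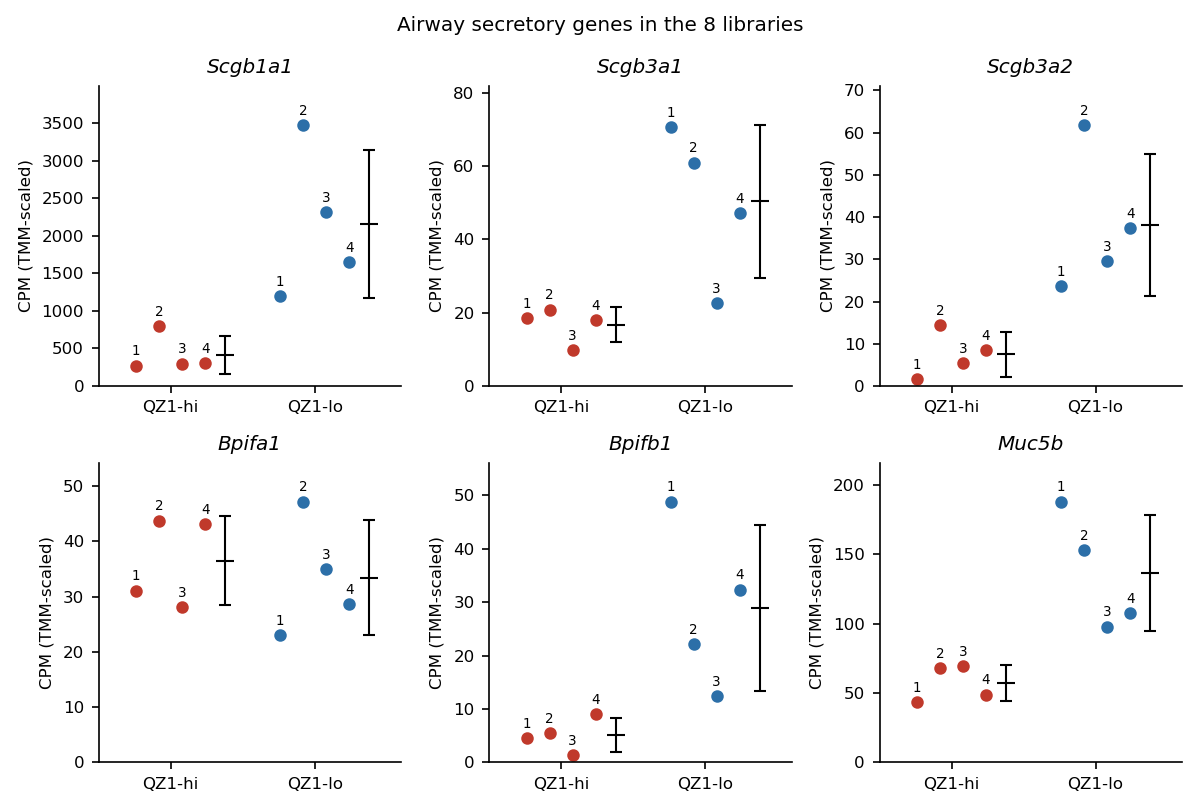
Level of each of the 6 secretory genes (CPM scaled by TMM, linear axis from 0, one panel per gene) in the 4 QZ1-hi libraries (red) and the 4 QZ1-lo libraries (blue), numbered by library, with the mean and SD of each population in black. In 5 panels all blue points lie above all red points, and in the Bpifa1 panel they overlap, with means of 36.5 and 33.5 CPM.

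Muc5b (Entrez 74180; GRCm38 chr7:141839059-141873089, plus strand) had the smallest difference of the genes called. It stood at 43.2, 67.7, 69.4 and 48.9 CPM in QZ1-hi and at 188, 153, 97.7 and 107 CPM in QZ1-lo. Its QZ1-hi libraries lay within 1.61-fold of each other and its QZ1-lo libraries within 1.92-fold. The means of 57.3 ± 13.2 and 136 ± 41.9 CPM (SD, n = 4 each) differed by a log2 fold change of -1.25 (SE 0.23, edgeR adjusted p = 0.00309), a level 2.38-fold lower in QZ1-hi.

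Bpifb1 (Entrez 228801; GRCm38 chr2:154190818-154220343, plus strand) encodes a BPIF protein of mucous cells and glands, and its log2 fold change was the 98th lowest of the 15583 genes tested, ahead of Scgb1a1 at 132 and Scgb3a2 at 142. Levels were 4.58, 5.43, 1.33 and 9.06 CPM in QZ1-hi and 48.8, 22.1, 12.4 and 32.3 CPM in QZ1-lo. Library 3 was lowest in both populations, and the highest QZ1-lo library was number 1, where Scgb1a1 was lowest. Means were 5.10 ± 3.18 and 28.9 ± 15.5 CPM (SD, n = 4 each), with a log2 fold change of -2.51 (SE 0.51, edgeR adjusted p = 0.00597).

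Bpifa1 (Entrez 18843; GRCm38 chr2:154142880-154149217, plus strand) encodes a surfactant-like antimicrobial protein of the upper airways. Its gene ends 41.6 kb before Bpifb1 on the same strand, with Bpifa5, which had no count in any library, between them. It was measured at 31.1, 43.8, 28.1 and 43.1 CPM in QZ1-hi and at 23.0, 47.2, 35.0 and 28.6 CPM in QZ1-lo, so that both the lowest and the highest library belonged to QZ1-lo. Means were 36.5 ± 8.10 and 33.5 ± 10.4 CPM (SD, n = 4 each). The log2 fold change was 0.13 (SE 0.23, 95% interval -0.37 to 0.62, edgeR adjusted p = 0.775), and its sign turned when only library size was used for scaling (-0.34). The interval covers levels in QZ1-hi from 0.774 to 1.54 times those in QZ1-lo, so that differences of the size seen in the other 5 genes lie outside it, while smaller differences in either direction do not. The exact permutation test of the library means gave p = 0.629.

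Per kilobase of exon, Scgb1a1 stood far above the other genes. Exon lengths came from GENCODE, and the annotation used for counting is not given in the sources used here, so these levels are approximate. In QZ1-lo the level per kilobase was 4538 ± 2082 CPM for Scgb1a1, 84.2 ± 34.8 for Scgb3a1, 43.3 ± 19.1 for Scgb3a2, 21.7 ± 6.72 for Bpifa1, 9.12 ± 2.80 for Muc5b and 7.99 ± 4.30 for Bpifb1 (SD, n = 4 each). Scgb3a1 and Scgb3a2 overlapped in that population, from 37.8 to 118 and from 26.8 to 70.2, as did Scgb3a2 with Bpifa1 (14.9 to 30.5) and Muc5b (6.53 to 12.6) with Bpifb1 (3.43 to 13.5). In QZ1-hi the level per kilobase was 873 ± 534 CPM for Scgb1a1, 28.0 ± 8.07 for Scgb3a1, 23.6 ± 5.24 for Bpifa1, 8.49 ± 6.09 for Scgb3a2, 3.83 ± 0.884 for Muc5b and 1.41 ± 0.878 for Bpifb1 (SD, n = 4 each). By mean, Bpifa1 thus ranked below Scgb3a2 in QZ1-lo and above it in QZ1-hi, where it overlapped Scgb3a1 (16.3 to 34.9) and stood above every Scgb3a2 value (1.88 to 16.3). In the GENCODE M21 annotation, no exon of the 6 genes overlaps an exon of another gene. None of their exonic stretches of 50 bases occurs in a transcript of another gene. The rest of the genome was not searched for near copies.

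Ratios of counts within a library do not depend on how libraries are scaled, and they show whether the genes kept the same proportions. The log2 ratio of Bpifa1 to Scgb1a1 was -3.37 ± 0.59 in QZ1-hi and -5.95 ± 0.22 in QZ1-lo (SD, n = 4 each). All QZ1-hi libraries lay above all QZ1-lo libraries, a 5.97-fold higher ratio (exact permutation p = 0.0286, adjusted p = 0.0952 over the 10 ratios tested). The log2 ratio of Muc5b to Scgb1a1 was 1.20 higher in QZ1-hi (exact permutation p = 0.0571) and that of Scgb3a1 to Scgb1a1 was 0.91 higher (exact permutation p = 0.2), with overlapping populations in both. The differences were -0.20 for Scgb3a2 (exact permutation p = 0.8) and -0.19 for Bpifb1 (exact permutation p = 0.771), with overlapping populations. The first became 0.24 without QZ1-hi 1, and the second became 0.05, 0.25, 0.37 and 0.015 without QZ1-hi 2, QZ1-hi 3, QZ1-lo 1 and QZ1-lo 4. No ratio passed an adjusted p of 0.05, but with 4 against 4 libraries this would need at least 6 of the 10 ratios to reach the smallest p of 0.0286, so the adjusted values do not bear on whether the 6 genes changed unequally.

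**Figure D2:**
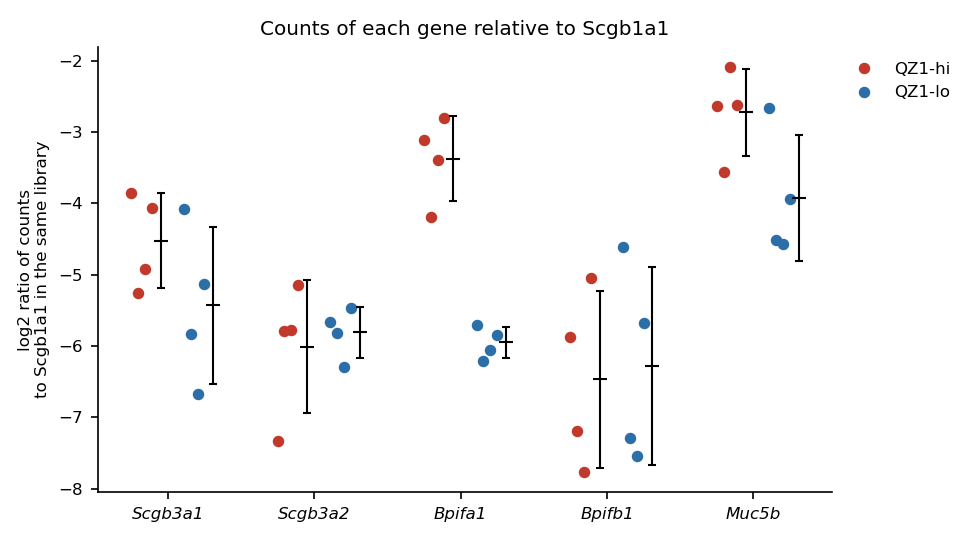
Log2 ratio of the counts of 5 secretory genes to the counts of Scgb1a1 in the same library, with QZ1-hi in red and QZ1-lo in blue, one point per library and the mean and SD of each population in black. The Bpifa1 points are the pair of groups that do not overlap, with means of -3.37 and -5.95.

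The libraries of QZ1-lo did not rank alike for all 6 genes. QZ1-lo 1 held the lowest Scgb1a1, Scgb3a2 and Bpifa1 of its population. It also held the lowest Cyp2f2, a club cell cytochrome P450, at 170 CPM against 240 to 459 in the other QZ1-lo libraries. Genes of ciliated cells were low there too, such as Foxj1 at 68.7 CPM against 75.5 to 131 and Dnah5 at 117 CPM against 160 to 193. Of the ciliated genes listed, only Mcidas was not lowest in QZ1-lo 1. The low level in that library was thus not particular to club cell genes. The same library held the highest Muc5b, Scgb3a1 and Bpifb1. It was highest too for 6 of the 12 mucous cell genes tested, among them Muc5ac, the mucin of goblet cells, at 14.8 CPM against 5.46 to 12.3, and Clca1, a secreted goblet cell protein, at 85.2 CPM against 1.09 to 14.5. Fcgbp, which encodes a mucus-associated protein, stood at 18.8 CPM there against 0.507 to 1.35, and Reg3g, a secreted antimicrobial lectin, at 26.1 CPM against 1.59 to 12.0. Of the other 6, 4 were highest in QZ1-lo 2, such as Pigr, the receptor that carries IgA into secretions, at 95.4 CPM there and 69.4 CPM in QZ1-lo 1. QZ1-lo 2 was the reverse for the first group, with the highest Scgb1a1, Scgb3a2, Bpifa1 and Cyp2f2. Without QZ1-lo 1 the log2 fold changes were -1.06 for Muc5b (edgeR adjusted p = 0.00811), -1.38 for Scgb3a1 (0.0189) and -2.13 for Bpifb1 (0.0179), so the calls did not rest on this library.

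**Figure D3:**
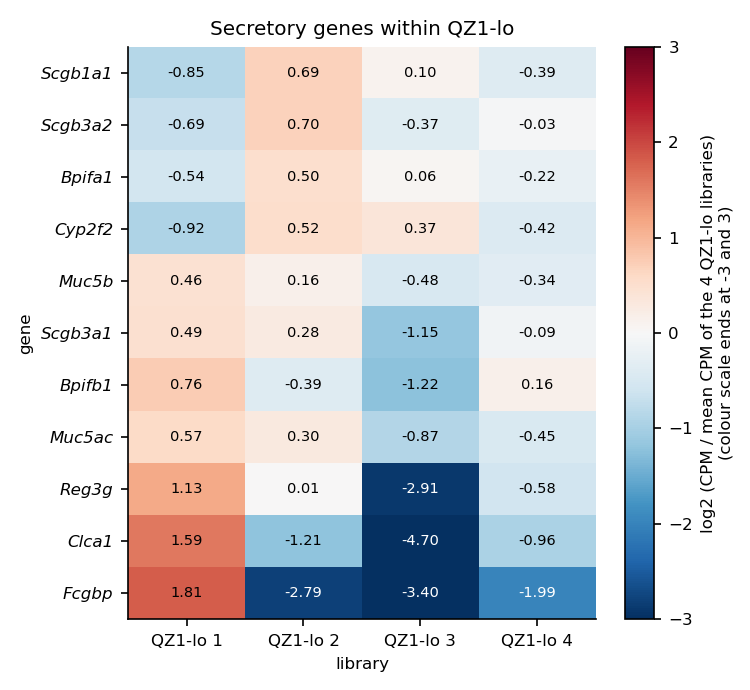
Level of 11 secretory and mucous genes in each QZ1-lo library, as the log2 of its CPM over the mean of the 4 QZ1-lo libraries (red above the mean, blue below, colors ending at -3 and 3, values printed in the cells). Scgb1a1, Scgb3a2, Bpifa1 and Cyp2f2 are below their mean in QZ1-lo 1, and the other 7 genes are above it there.

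Over the 8 libraries the profile most like that of Scgb1a1 was that of Cyp2b10, another P450 of club cells (Pearson r of log2 CPM 0.998). It was followed by Ceacam15 (0.993), Mylpf (0.993), Klhl38 (0.992) and Map1b (0.992), of which Ceacam15 and Mylpf averaged under 0.1 CPM in QZ1-hi. For the other secretory genes r with Scgb1a1 was 0.925 for Scgb3a2, 0.811 for Muc5b, 0.745 for Scgb3a1, 0.707 for Bpifb1 and 0.158 for Bpifa1. After the mean of each population was taken away, r was 0.81 for Bpifa1, 0.73 for Scgb3a2, 0.13 for Muc5b, 0.05 for Scgb3a1 and -0.15 for Bpifb1. These coefficients are descriptions over 8 libraries that share the contrast between populations, and they carry no test.

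Enzymes of club cells were mostly lower in QZ1-hi as well. Of 15 listed metabolic genes, 9 were lower, 1 was higher and 5 were not called, and their median log2 fold change was -1.37 against 0.02 over all genes tested. Cyp2f2 stood at 40.9, 162, 63.4 and 79.1 CPM in QZ1-hi and at 170, 459, 414 and 240 CPM in QZ1-lo, and its log2 fold change was -1.89 (SE 0.42, edgeR adjusted p = 0.0087). The lowest QZ1-lo library lay just above the highest QZ1-hi library, QZ1-hi 2, which was also the highest for Scgb1a1. Cyp2b10 differed by -1.76 on the log2 scale, Cyp2a5 by -1.96 (edgeR adjusted p = 0.0158, and 0.051 without QZ1-lo 2) and the carbonyl reductase Cbr2 by -1.88. The exception was Fmo2, a flavin monooxygenase of lung, at 45.6, 67.9, 72.3 and 53.5 CPM in QZ1-hi and 11.7, 19.1, 17.8 and 12.4 CPM in QZ1-lo (log2 fold change 1.97, SE 0.21, edgeR adjusted p = 0.000278).

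A second list held 13 other genes of club cells, of which 12 were tested, 7 were lower, 1 was higher and 4 were not called, with a median log2 fold change of -1.63. Sec14l3, a lipid-binding protein, differed by -1.71 on the log2 scale (SE 0.31, edgeR adjusted p = 0.00291), Cckar, a cholecystokinin receptor, by -1.75 and Hp, the hemoglobin-binding haptoglobin, by -1.34. Upk1b, a uroplakin, was the one higher in QZ1-hi, at 5.81, 22.3, 3.53 and 6.26 CPM against 0.566, 2.73, 1.63 and 0.123 CPM. Its log2 fold change of 2.91 (SE 0.78, edgeR adjusted p = 0.0242) became 2.02 without QZ1-hi 2, the library that stood highest (edgeR adjusted p = 0.103), and 2.66 without QZ1-lo 1 (edgeR adjusted p = 0.0649).

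Of 18 listed mucous cell genes, 12 were tested, 6 were lower in QZ1-hi, none was higher and 6 were not called, with a median log2 fold change of -1.74. Muc5ac, which lies 19.831 kb from Muc5b on the same strand, stood at 1.40, 3.21, 1.56 and 1.43 CPM in QZ1-hi and at 14.8, 12.3, 5.46 and 7.28 CPM in QZ1-lo (log2 fold change -2.39, SE 0.40, edgeR adjusted p = 0.00193). Pigr differed by -1.85 on the log2 scale, lactoferrin (Ltf) by -1.46 and the mucosal glycoprotein Dmbt1 by -1.30 (edgeR adjusted p = 0.0201, and 0.0534 to 0.0546 without QZ1-hi 4, QZ1-lo 1 or QZ1-lo 2). Reg3g had a log2 fold change of -3.40 (SE 0.77, edgeR adjusted p = 0.00984) with overlapping populations, and limma did not call it (adjusted p = 0.115). Clca1 had one of -3.85 (edgeR adjusted p = 0.0428), which became -2.26 without QZ1-lo 1 (adjusted p = 0.197) and was also not called without QZ1-hi 2, QZ1-hi 3, QZ1-hi 4 or QZ1-lo 2. Fcgbp was not called (log2 fold change -2.49, edgeR adjusted p = 0.142), and its value was 0.12 without QZ1-lo 1. Also not called were Agr2 (-1.64, edgeR adjusted p = 0.133), Gp2 (-1.86, 0.0703), Foxa3 (-0.78, 0.666), Galnt12 (-0.49, 0.486) and Creb3l1 (0.58, 0.231). Spdef, Tff2, Ern2, Clca2, Itln1 and St6galnac1 did not pass the filter on low counts.

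**Figure D4:**
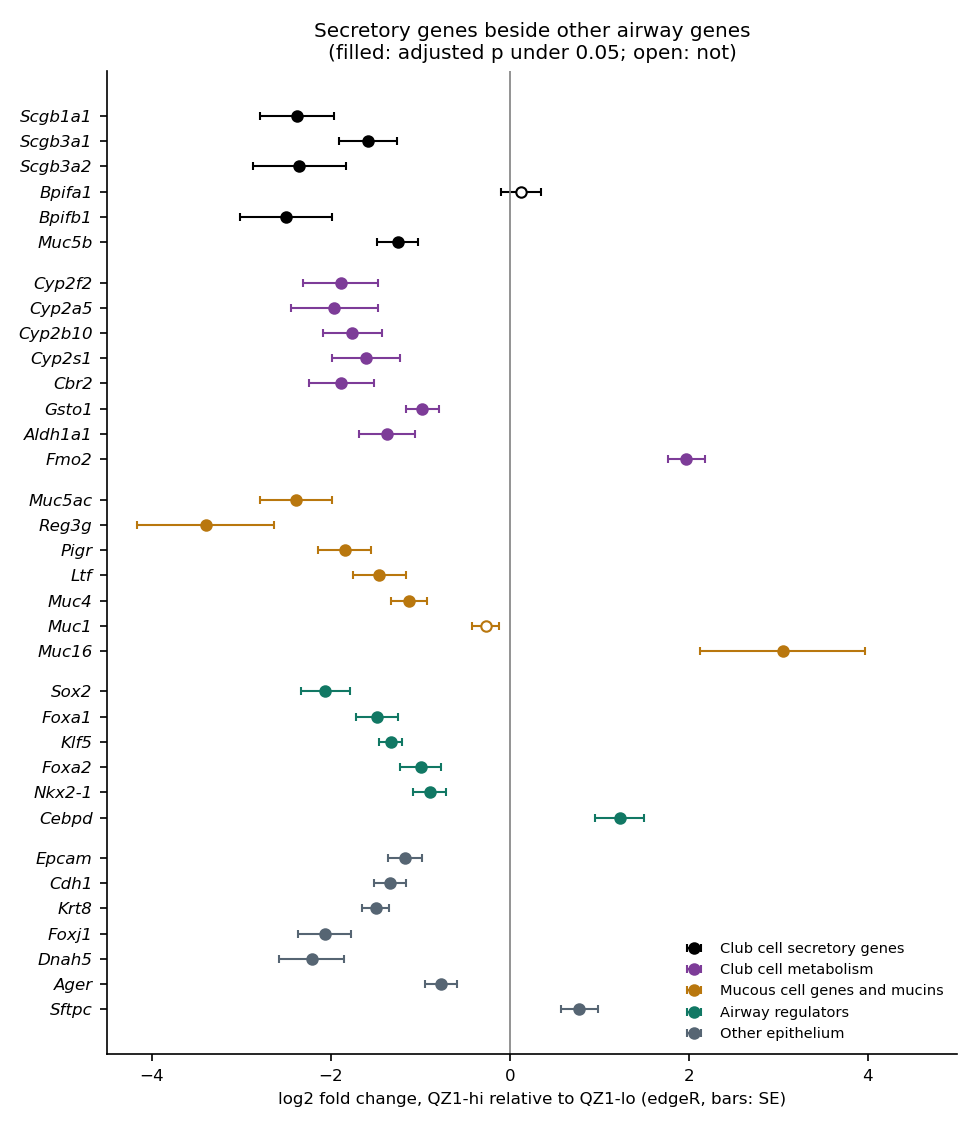
Log2 fold change of QZ1-hi relative to QZ1-lo (x axis, bars are the SE from edgeR) for the 6 secretory genes in black and for named genes of other lists in color, where filled points have an adjusted p under 0.05 and open points do not. Most points lie left of 0, Bpifa1 (0.13) and Muc1 (-0.27) are open, and Fmo2, Muc16, Cebpd and Sftpc lie to the right.

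Mucins of the cell surface differed among themselves. Muc4 was lower in QZ1-hi (log2 fold change -1.13, SE 0.20, edgeR adjusted p = 0.00273), and Muc1, found on many epithelial cells, was not called (-0.27, SE 0.15, edgeR adjusted p = 0.282). Muc16, known from mesothelium and airway, was higher at 1.65, 5.48, 1.33 and 3.04 CPM against 0.328, 0.122, 0.905 and 0 CPM (log2 fold change 3.05, edgeR adjusted p = 0.0419), a call lost (adjusted p 0.0533 to 0.146) without QZ1-hi 1, QZ1-hi 2, QZ1-hi 4, QZ1-lo 1 or QZ1-lo 2. Among the other members of the secretoglobin and BPIF families, 17 were in the table, 9 had no count in any library, and 2 could be tested. Bpifb5, which begins 3.398 kb after Bpifb1, was measured at 0.0424, 0.395, 0.0578 and 0 CPM in QZ1-hi and at 0.865, 0.936, 1.45 and 1.23 CPM in QZ1-lo (log2 fold change -3.09, edgeR adjusted p = 0.0406). Lbp, the lipopolysaccharide-binding protein, was higher in QZ1-hi (log2 fold change 0.65, edgeR adjusted p = 0.032). The call of Bpifb5 held without QZ1-hi 2 (log2 fold change -4.85) and was lost in the 7 analyses without any other library (edgeR adjusted p 0.0745 to 0.116). That of Lbp held without QZ1-hi 4 or QZ1-lo 3, was lost in the other 6 (edgeR adjusted p 0.0584 to 0.0938), and was lost with scaling by library size only (log2 fold change 0.22).

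Of 17 listed transcription factors and signaling genes of airway secretory cells, 10 were lower in QZ1-hi, 1 was higher and 6 were not called, with a median log2 fold change of -0.81. Nkx2-1, which marks lung epithelium and activates secretoglobin and surfactant genes, was measured at 75.3, 57.8, 39.1 and 56.3 CPM in QZ1-hi and at 112, 86.3, 118 and 108 CPM in QZ1-lo (log2 fold change -0.90, SE 0.19, edgeR adjusted p = 0.00625). Foxa1 and Foxa2, forkhead factors of endodermal epithelium, differed by -1.48 and -0.99 on the log2 scale, Klf5 by -1.33, and Sox2, a factor of the conducting airways, by -2.06. Cebpd was higher in QZ1-hi (log2 fold change 1.23, SE 0.27, edgeR adjusted p = 0.00892), a call lost with scaling by library size only.

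Markers of other cell types moved between the populations beside these genes. All 8 listed genes of epithelium in general were lower in QZ1-hi (median log2 fold change -1.32, summed level 565 to 894 CPM in QZ1-hi and 1652 to 2251 CPM in QZ1-lo), as were 9 of 10 genes of ciliated cells (median -2.06, 77.5 to 231 CPM and 370 to 714 CPM). All 7 endothelial genes (883 to 2155 CPM and 57.3 to 276 CPM) and 6 of 7 stromal genes (1574 to 3014 CPM and 39.1 to 356 CPM) were higher in QZ1-hi. Alveolar type 2 genes went with neither direction as a whole, as 2 of 10 were higher, 8 were not called and none was lower (median 0.39, 11401 to 14795 CPM and 8108 to 9805 CPM). With scaling by library size only, none of them was higher and 1 was lower, 1 was lower without QZ1-hi 1, and 1, 0 and 1 were higher without QZ1-lo 1, QZ1-lo 2 and QZ1-lo 4. Of 8 alveolar type 1 genes, 5 were lower in QZ1-hi, 2 were higher and 1 was not called (median -0.51, 886 to 1308 CPM and 1332 to 1611 CPM), and 3 to 5 were lower when 1 library was left out. The 3 basal cell genes tested were not called, and the summed level of the 5 listed was at most 7.66 CPM in any library. None of the 7 hematopoietic genes tested was called by edgeR, DESeq2 or limma, and none had an unadjusted p under 0.05 (median -0.15, 253 to 636 CPM and 333 to 512 CPM). The 4 erythroid genes had a median log2 fold change of -1.60, with overlapping populations (131 to 1006 CPM and 282 to 3097 CPM). None of the 4 was called by edgeR, DESeq2 or limma, 3 had an unadjusted p under 0.05, 3 were called lower by edgeR without QZ1-lo 1, and 4 were called lower with scaling by library size only. The part of these cell types in the differences of the secretory genes was not tested.

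Scgb1a1 was also set against markers of other epithelial cells within each library. Its log2 ratio to Sftpc, a surfactant gene of alveolar type 2 cells, was -3.41 ± 0.90 in QZ1-hi and -0.23 ± 0.60 in QZ1-lo (SD, n = 4 each) without overlap (exact permutation p = 0.0286, adjusted p = 0.0952). Sftpc itself was called higher in QZ1-hi (log2 fold change 0.78, edgeR adjusted p = 0.0231). That call was lost with scaling by library size only and without QZ1-lo 1, QZ1-lo 2 or QZ1-lo 4. The surfactant genes Sftpa1 (0.03), Sftpb (0.39) and Sftpd (-0.37) were not called, and ratios to them were not tested. The log2 ratio of Scgb1a1 differed by -1.22 relative to Epcam and by -1.06 relative to Cdh1, the gene of E-cadherin (QZ1-hi minus QZ1-lo, exact permutation p = 0.0571 for both), with overlapping populations. The differences were smaller relative to Cyp2f2 (-0.46, exact permutation p = 0.0571) and relative to Foxj1, the regulator of ciliated cells (-0.32, exact permutation p = 0.286).

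Total counts ranged from 18380918 to 26847938 per library. Mitochondrial and ribosomal RNA genes took 43.7% to 65.6% of the counts in QZ1-hi and 34.0% to 53.2% in QZ1-lo, which left between 8749446 and 16389316 counts for other genes. A level of 3 counts, taken as the floor, corresponds to 0.0894 to 0.179 CPM and covers counting error only, and all 6 genes were above it in all 8 libraries. Removing the mitochondrial and ribosomal RNA genes before scaling gave the same 5 calls, with a log2 fold change of -2.38 for Scgb1a1 and 0.13 for Bpifa1.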

How the data were processed

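RNA of 4 QZ1-hi and 4 QZ1-lo libraries was measured by bulk RNA-seq with a SMARTer stranded total RNA kit. The authors deposited raw, unnormalized read counts that Rsubread gave for 27179 Entrez Gene identifiers. The submitters' processing notes name the build mm10 and DESeq2, and the aligner and the strand setting of the counting are not given in the sources used here. Symbols came from a RefSeq gene table, which matched 25275 identifiers and left 1904 without a symbol. Coordinates of genes on GRCm38 came from the same RefSeq gene table, and strands and exons from GENCODE M21. Promoters came from RefSeq, whose promoter table held entries for 3 of the 6 genes.

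The fit was made with edgeR 4.0.16 in R 4.3.3 (TMM scaling, filterByExpr with a minimum count of 10 and a minimum total of 15, quasi-likelihood test between populations on 15583 genes, Benjamini-Hochberg adjustment, threshold 0.05). The SE was obtained from the fold change and the F statistic. Ratios within a library used counts plus 0.5 and exact permutation tests, two-sided, with 70 assignments. Libraries are numbered in the order of deposition, and the numbers were not used to pair them, since whether neighboring libraries share a mouse is not given in the sources used here. Replicates are biological per the labels, and the mice behind them are not named. The 6 genes and the 16 lists beside them were chosen with earlier results of these data known. Named genes were the 6, genes of these lists, and the 5 genes most like Scgb1a1 over the 8 libraries, and which listed genes to name was chosen after their values were seen. Of 168 listed genes, 3 (Muc19, Scgb2a2 and Hbb-bt) had no match in the table. The procedure was tested on simulated data. Alternatives were DESeq2 1.42.0, limma 3.58.1 (voom with sample quality weights), other scalings, filters and shrinkage, removal of mitochondrial and ribosomal RNA genes, and each library left out in turn.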

Additional observations from a re-analysis of the deposited data

Results flagged for a closer look

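Values were looked at for a single library that lay far from the other 3 of its population (gap over range above Dixon's 95% critical value for 4 samples). Of 114 groups of 4 libraries examined, 10 held such a library. Chance gives about 5% for independent groups picked without regard to their values. Many of these genes were named after their values were seen, and genes vary together across libraries. The number flagged can therefore not be weighed against that rate.

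QZ1-hi 2 stood apart in 6 genes. It held 796 CPM of Scgb1a1 against 268 to 301 in the other QZ1-hi libraries, 29.2 CPM of Cyp2b10 against 11.0 to 12.7, and 9.04 CPM of Cckar against 2.78 to 3.40. It also held 22.3 CPM of Upk1b against 3.53 to 6.26 and 3.21 CPM of Muc5ac against 1.40 to 1.56. Bpifb5 stood at 0.395 CPM in the same library against 0 to 0.0578.

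QZ1-lo 1 stood apart in 2 genes of mucous cells, with 85.2 CPM of Clca1 against 1.09 to 14.5 in the other QZ1-lo libraries and 18.8 CPM of Fcgbp against 0.507 to 1.35. Foxa1 was 53.8 CPM in QZ1-lo 3 against 34.0 to 35.2. Cebpd was 241 CPM in QZ1-hi 3 against 94.8 to 107.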

How the results depend on the processing

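Scgb1a1, Scgb3a1, Scgb3a2, Bpifb1 and Muc5b were lower in QZ1-hi and called under all 8 alternative settings and in all 8 analyses that left out 1 library. Leaving out 1 library gave log2 fold changes from -2.93 to -2.05 for Scgb1a1, -1.83 to -1.38 for Scgb3a1, -2.91 to -2.01 for Scgb3a2, -2.90 to -2.13 for Bpifb1 and -1.39 to -1.06 for Muc5b. Bpifa1 was not called under any setting; its log2 fold change was -0.34 with library size only (edgeR adjusted p = 0.323) and ranged from -0.016 (without QZ1-lo 1) to 0.34. The log2 ratio to Scgb1a1 ranged from -0.66 to 0.37 for Bpifb1 and from -0.49 to 0.24 for Scgb3a2, and the log2 fold change of Fcgbp from -2.86 to 0.12 (without QZ1-lo 1). With library size only, 882 genes were higher and 2509 lower in QZ1-hi, against 1540 and 1280 with TMM, as the log2 fold change's median over all genes tested moved from 0.02 to -0.44. No paired analysis was possible because neither the labels nor the study's methods link libraries by mouse. Libraries with 8749446 to 16389316 counts outside mitochondrial and ribosomal RNA left the genes under 2 CPM, such as Bpifb5, with few counts.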
